A study of Mus musculus with 2 samples.

Results

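At embryonic day 9.5 (E9.5), 407 of 16780 mouse mesodermal cells carried transcripts of Sfrp5 and of Shox2 together with little sarcomere RNA, and these cells are described here. They were selected on measured counts. A member held at least 1 unique molecular identifier (UMI, a tag that marks 1 captured transcript) of Sfrp5 and of Shox2, no UMI of Colec10, fewer than 2 UMIs of Upk3b and Upk1b together, and less than 1% of its UMIs from the 7 sarcomere genes Tnnt2, Myl4, Actc1, Ttn, Myh6, Myh7 and Myl7. The levels of these genes in the members are therefore a description and no finding. Before that, barcodes with fewer than 1000 genes or over 10% mitochondrial UMIs were dropped, which left 16780 of 17699.

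The cells came from 2 droplet libraries of the pharyngeal apparatus and heart of Swiss Webster embryos, sorted as GFP-positive, DAPI-negative cells. One library, labelled here Ctrl, had the genotype Mesp1Cre;Rosa26-GFPflox/+. The other, labelled cKO, had the genotype Mesp1Cre;Rosa26-GFPflox/+;Tbx1flox/flox, in which Tbx1, a T-box factor of the pharyngeal mesoderm, carries loxP sites on both alleles. Both carry the driver, which acts in early mesoderm and its descendants, and the sort took the cells it had marked. Each library pooled a pair of embryos, per the study's methods, and the cKO embryos were of a later somite stage, so genotype, stage and library cannot be told apart. With 1 library per genotype there is no replicate check. No test was made, and the intervals below are at 95% and cover counting error only.

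The sinus venosus is the inflow end of the embryonic heart, where the systemic veins enter. Its mesenchyme and its later myocardium derive from Tbx18-expressing mesoderm that lies beside the septum transversum and the proepicardium, and the sinoatrial node forms within it. Shox2 encodes a homeodomain factor required for the pacemaker program, Sfrp5 a secreted Wnt antagonist found in inflow progenitors, and Tbx18 the T-box factor that builds the sinus horns.

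The 250 bases before the start of each of these genes are shown because Sfrp5 and Shox2 define the cells and Tbx18 led the more abundant genes that the rule did not use. The sequences are from RefSeq for GRCm38.p6, which is the build of the counts (mm10), and are written 5′ to 3′ on the strand of the gene. The Sfrp5 promoter is chr19:42202253-42202502, that of Shox2 chr3:66981772-66982021 and that of Tbx18 chr9:87731261-87731510, all on the minus strand. Capitals mark matches to the letters searched, written as their reverse complement where the match is on the opposite strand.
Sfrp5: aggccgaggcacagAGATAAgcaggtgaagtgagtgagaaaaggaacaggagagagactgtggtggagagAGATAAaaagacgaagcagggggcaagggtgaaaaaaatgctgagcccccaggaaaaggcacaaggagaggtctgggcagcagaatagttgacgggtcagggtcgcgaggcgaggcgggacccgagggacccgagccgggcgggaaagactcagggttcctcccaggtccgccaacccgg
Shox2: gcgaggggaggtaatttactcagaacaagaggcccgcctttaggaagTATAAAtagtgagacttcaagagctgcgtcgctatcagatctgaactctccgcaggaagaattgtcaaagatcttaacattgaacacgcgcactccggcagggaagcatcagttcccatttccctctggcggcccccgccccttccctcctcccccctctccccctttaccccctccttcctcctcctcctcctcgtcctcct
Tbx18: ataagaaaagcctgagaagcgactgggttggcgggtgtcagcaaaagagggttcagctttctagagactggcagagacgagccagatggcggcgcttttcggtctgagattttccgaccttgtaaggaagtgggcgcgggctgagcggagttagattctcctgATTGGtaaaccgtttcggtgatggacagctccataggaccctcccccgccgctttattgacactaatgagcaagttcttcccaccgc
Searched on both strands were AGATAA (the core of GATA factor sites), TATAAA (the core promoter box), CCAAT (a site of NF-Y), the T-box half-site GGTGTGA and the homeodomain core TAATTA. The Sfrp5 window held 2 matches to AGATAA, 236 and 180 bases before the start. In the Shox2 window, 1 TATAAA lay 203 bases before it, and the Tbx18 window held 1 CCAAT on the opposite strand, 87 bases before it. Of 32851 promoter windows of the same length, 9.99% held AGATAA, 12.4% TATAAA and 33.8% CCAAT. The T-box half-site (3.33% of windows) and the homeodomain core (4.84%) were found in none of the 3. A match is a description of letters and not of a bound site.

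The members were 143 of 7007 kept cells in the library labelled Ctrl, 2.04% (1.72 to 2.40, Clopper-Pearson), and 264 of 9773 in the library labelled cKO, 2.70% (2.39 to 3.04). Their summed depth was 3010689 and 4996338 UMIs, so that the floor of 3 counts, the highest sum a count of 0 leaves possible, was 0.996 and 0.6004 CPM (counts per 1000000 UMIs). Median depth was 18634 and 15202.5 UMIs per member, against 17308 and 14684 over kept cells. Of the barcodes, 15 occurred in both libraries and none of these was a member. Presumed doublets, the cells with the highest simulated-doublet scores at 0.8% per 1000 kept cells, made up 14.7% and 18.9% of members and 5.42% and 7.51% of the other kept cells. Xist and Y-linked RNA in the same cell, with 2 or more UMIs of each, were seen in 6.99% and 8.33% of members. In the other kept cells the shares were 3.39% and 3.83%. Tbx1, counted from 3′ ends, was at 8.64 CPM (26 UMIs in 14 cells) in the library labelled Ctrl and 14.8 CPM (74 UMIs in 28 cells) in the library labelled cKO. The counts did not fall where the label says it was floxed, and whether the floxed part lies under the counted ends is not given in the sources used here.

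Among kept cells, Sfrp5 was found in 651 and 1055, Shox2 in 532 and 772, and both in 206 and 385. Shox2 was thus found in 31.6% and 36.5% of Sfrp5-positive cells, and Sfrp5 in 38.7% and 49.9% of Shox2-positive cells. In endothelial cells (Pecam1 and Cdh5 both counted), which should lack both genes, Sfrp5 was found in 0.377% of 265 and 2.31% of 260, Shox2 in 0.755% and 3.08% and both genes in 1 and 2 cells, at median depths of 17875 and 15027.5 UMIs. Of the cells positive for both genes, 69.4% and 68.6% met the rest of the rule. Sarcomere RNA of 1% or more left out 45 and 82, 2 or more UMIs of Upk3b and Upk1b 15 and 35, and Colec10 5 and 9. Just inside the limits lay 12 and 38 members with a single UMI of each gene. A further 8 and 19 members had 0.8% to 1% sarcomere UMIs, and 9 and 15 cells with 1% to 1.2% lay just outside. Members held a median of 3 and 2 Sfrp5 UMIs, up to 21 and 15, and a median of 2 and 3 Shox2 UMIs, up to 34 and 20.

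Among genes of at least 50 CPM in members of both libraries that the rule did not use, Tbx18 had the largest ratio to the other kept cells. It was at 243 CPM (226 to 261) in members of the library labelled Ctrl and 185 CPM (174 to 198) in those labelled cKO, against 25.5 and 20.2 CPM in the other kept cells, which is 9.52 and 9.17 times as high. A Tbx18 UMI was found in 83.2% and 81.1% of members. Hcn4, the main pacemaker channel of the sinoatrial node, went the same way, at 9.63 and 14.2 CPM (7.10 and 8.37 times). Vsnl1, a neuronal calcium sensor family protein found in the sinoatrial node, was at 128 and 153 CPM (6.84 and 5.91 times), and Smoc2, a secreted calcium-binding matrix protein, at 76.4 and 86.1 CPM (6.37 and 8.21 times). These values describe cells chosen by their counts against all others and are not a test.

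The other leading genes fell into a few kinds. Both subunits of soluble guanylate cyclase, the receptor for nitric oxide, were among them. Gucy1a3 was at 121 and 112 CPM (6.66 and 5.48 times the other kept cells) and Gucy1b3 at 64.4 and 68.3 CPM (8.01 and 6.12 times). Secreted ligands were adrenomedullin (Adm, 53.8 and 74.9 CPM), the Tie2 ligand Angpt1 (179 and 164 CPM, 4.87 and 4.59 times) and Wnt2 (290 and 267 CPM, 3.95 and 3.73 times), which other inflow and lung mesoderm also carries. Surface proteins were Alcam (393 and 283 CPM, 5.04 and 4.63 times), the endothelin receptor Ednrb (53.1 and 52.2 CPM) and the integrin subunit Itga4 (71.1 and 50.4 CPM, 7.49 and 5.59 times). Itga4 was uneven. It was found in 29.4% and 29.9% of members, and the 5 highest cells held 43.5% and 31.0% of its UMIs. Nuclear regulators were Nfia (67.8 and 51.2 CPM), Lbh (152 and 170 CPM) and Mab21l2 (80.4 and 77.5 CPM). Lpl, Fbxo32, Mgarp and Ppp1r14c completed the 20 genes with the largest ratio among those of at least 50 CPM in members of both libraries, together with Sfrp5 and Shox2, which the rule fixed. Hcn4 was under that level. A leading place against all other cells does not make a gene particular to the members. In the 66 and 168 cells with at least 5% sarcomere UMIs, Angpt1 (251 and 216 CPM), Vsnl1 (222 and 327 CPM), Fbxo32 (257 and 270 CPM) and Ppp1r14c (368 and 406 CPM) were at higher levels than in members, and Adm was at 49.4 and 60.6 CPM. In endothelial cells Ednrb was at 65.7 and 68.5 CPM.

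Of the 4 markers given for a sinus venosus-like name, Sfrp5 and Shox2 were the rule itself and Tbx18 was high, but Postn, a matricellular protein, was not. Postn was at 18.3 CPM (13.8 to 23.8) and 22.2 CPM (18.3 to 26.8), and the 5 highest cells held 63.6% and 43.2% of its UMIs. It was higher in Upk3b or Upk1b positive cells (103 and 51.2 CPM) and in Colec10, Wt1 positive cells (51.3 and 69.5 CPM). After each cell was thinned to 5000 UMIs it was found in 4.20% and 6.87% of members, against 3.42% and 2.37% of endothelial cells. Isl1, a LIM-homeodomain factor of second heart field and sinoatrial cells, was at 0.737 and 0.564 of its level in the other kept cells. Tbx3, a T-box repressor of the conduction system, was at 8.64 and 8.41 CPM. Of the 4 markers, Tbx18 was thus the one outside the rule that was high, and the cells are called Sfrp5, Shox2 positive cells from here on. Tcf21 (189 and 128 CPM) and Wt1 (52.8 and 32.2 CPM, found in 46.2% and 38.3% of members), both known from epicardial and septum transversum mesoderm, were counted in them as well. Nkx2-5, a cardiac homeodomain factor, was at 7.97 and 4.00 CPM.

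**Figure D1:**
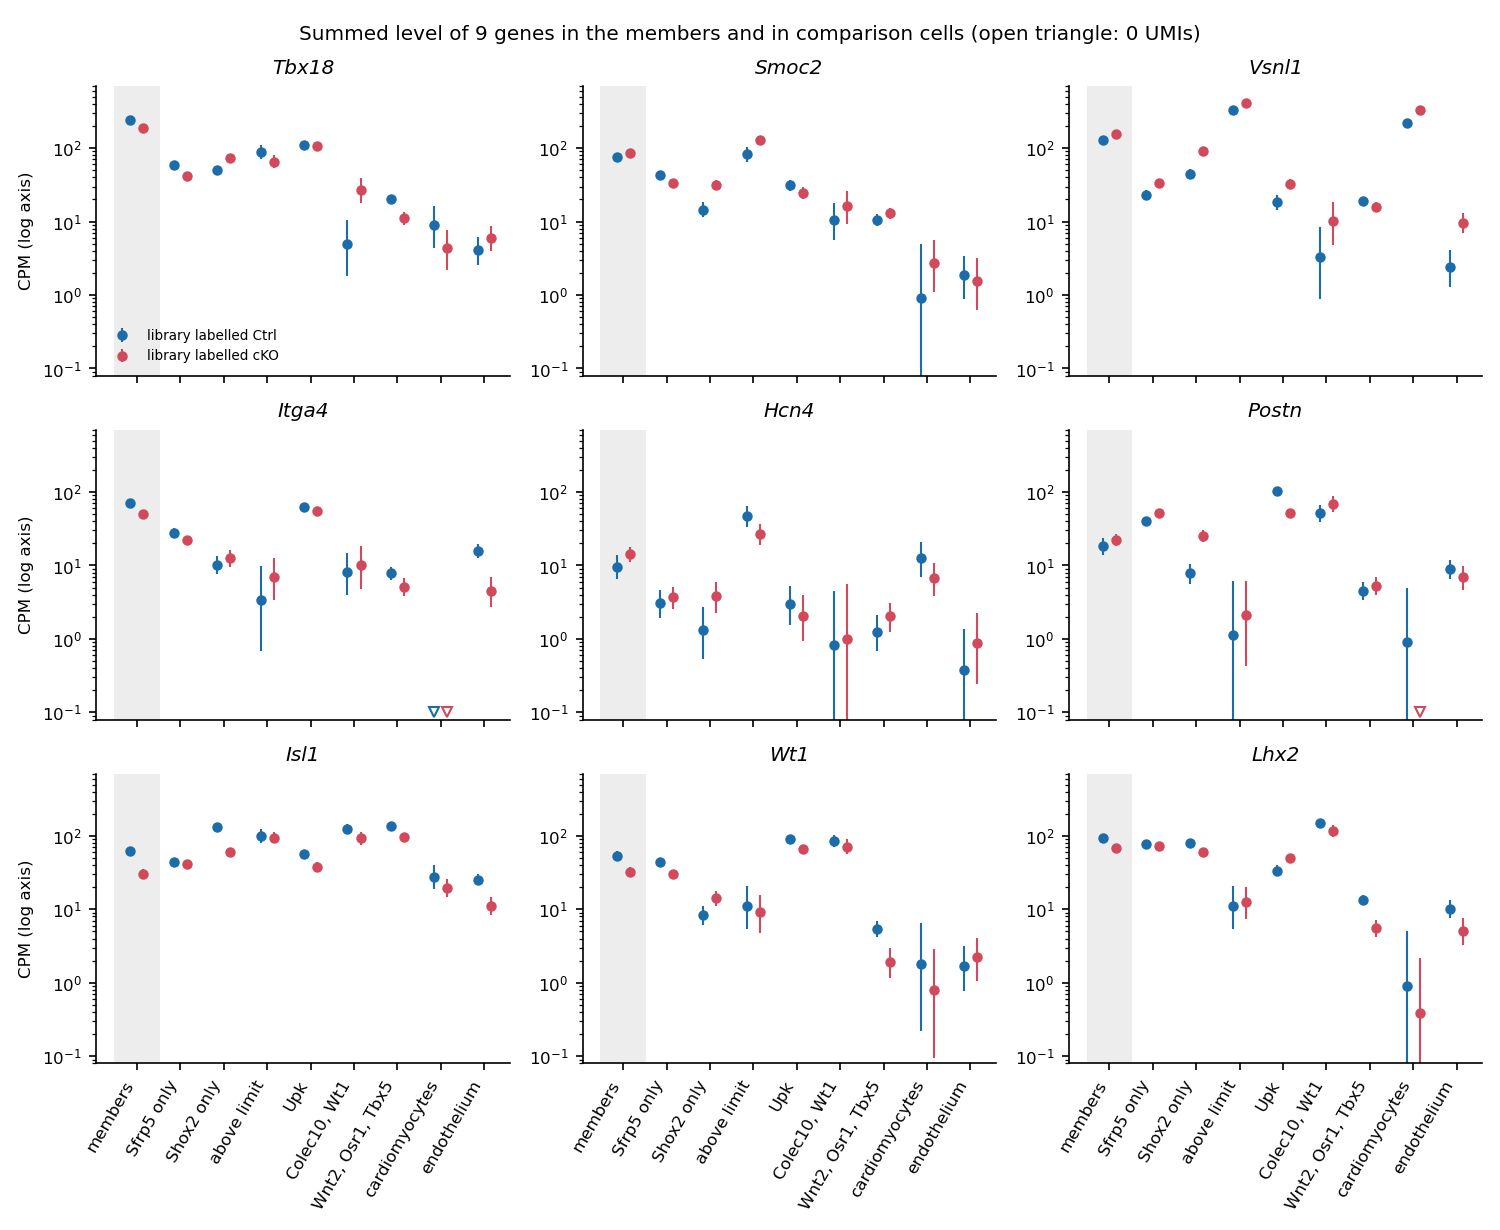
Summed level in CPM on a log axis for 9 genes in the members (shaded) and 8 sets of comparison cells, each set by counts of the genes named on the axis, in both libraries, with exact Poisson 95% intervals. Tbx18 was highest in the members, at 243 and 185 CPM, whereas Postn was higher in Upk positive cells, at 103 and 51.2 CPM.

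Cells with only one of the defining genes carried less of the others. Tbx18 was at 58.5 and 41.3 CPM in cells with Sfrp5 but no Shox2 (361 and 526 cells) and at 50.9 and 73.0 CPM in cells with Shox2 but no Sfrp5 (270 and 256 cells). Vsnl1 was at 22.9 and 33.2 CPM in the former and 45.1 and 92.2 CPM in the latter, below the 128 and 153 CPM of members. Alcam, however, was higher with Sfrp5 alone (507 and 340 CPM) than in members and low with Shox2 alone (62.7 and 120 CPM). Cells with 2 or more UMIs of Upk3b and Upk1b (170 and 212 cells), genes of mesothelium, came closest to members in Tbx18, at 111 and 107 CPM. They carried more Wt1 (89.4 and 65.7 CPM) and less Vsnl1 (18.4 and 32.6 CPM). In Wnt2, Osr1, Tbx5 positive cells (480 and 455 cells), Tbx18 was at 19.99 and 11.0 CPM and Isl1 at 135 and 95.6 CPM, above the 61.4 and 30.2 CPM of members.

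The Sfrp5, Shox2 positive cells above the sarcomere limit (44 and 77 cells) differed from the members in several genes. Vsnl1 was higher there (327 and 414 CPM against 128 and 153 in members), as were Shox2 (451 and 303 CPM) and Hcn4 (47.0 and 26.5 CPM). Tbx18 was lower (88.4 and 65.6 CPM), Lhx2, a LIM-homeodomain factor of liver mesenchyme, was at 11.2 and 12.6 CPM against 94.3 and 67.6, and Itga4 was at 3.36 and 6.98 CPM. Nppa, the atrial natriuretic peptide precursor of chamber myocardium, gave 87 and 32 UMIs in these cells. In the members it gave 4 and 6 UMIs over all 407 cells.

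Within the members themselves, sarcomere RNA ran from 0 to the limit, with a median of 0.130% and 0.244% of UMIs. At least 0.1% was found in 60.1% and 77.3% of members, against 1.51% and 2.31% of endothelial cells, where the pooled share was 0.00940% and 0.0660%. In bands of under 0.1%, 0.1 to 0.3% and 0.3 to 1%, there were 57, 54 and 32 members in the library labelled Ctrl and 60, 98 and 106 in the library labelled cKO. The highest band was set beside the lowest as a description, since the rule also used the sarcomere share. Of 4758 genes with at least 30 UMIs summed over the members of both libraries and at least 30 CPM in 1 library, the genes of the rule left out, 187 were higher in the high band with intervals off 0 in both libraries, which is 3.93%, and 150 were lower, 3.15%. Cells with 2 or more UMIs of both Xist and Y-linked genes made up 10.5% and 15.0% of the lowest band and 3.13% and 5.66% of the highest, on 1 to 9 cells, with intervals that overlap in both libraries.

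Of the 12 sinus venosus and pacemaker genes over the same minimums, without Sfrp5 and Shox2, 7 were higher in the high band, none was lower and 5 met neither. The shares over all 4758 genes were 3.93% higher and 3.15% lower. Hcn4 and Tbx3 were under the minimums and are not among the 12. Shox2, which the rule used, went from 89.6 to 352 CPM in the library labelled Ctrl and from 88.3 to 305 CPM in the library labelled cKO, log2 ratios of 1.97 and 1.79. Hcn4 went from 3.20 to 26.6 and from 5.84 to 24.3 CPM, Smoc2 from 32.8 to 160 and from 32.1 to 137 CPM, and Vsnl1 from 41.6 to 240 and from 73.0 to 209 CPM. Popdc2, a membrane protein of heart muscle involved in pacemaking, had log2 ratios of 2.13 and 1.51, Slit3, a guidance ligand, of 1.44 and 1.15, and Isl1 of 0.97 and 0.63. Tbx18 had log2 ratios of 0.86 and 1.05, although its highest level was in the middle band, at 341 and 238 CPM. Tbx3 was at 11.2 and 11.7 CPM in the low band and 8.88 and 7.92 CPM in the high one, with intervals that held 0.

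Of 6 smooth muscle genes over the minimums, 4 were higher in the high band, none was lower and 2 met neither. Beside this, 3.93% of all 4758 genes were higher and 3.15% lower. Acta2, smooth muscle actin and also an early cardiac actin, went from 102 to 823 CPM and from 194 to 1170 CPM. Tagln had log2 ratios of 3.36 and 2.30, and Myocd, the coactivator of serum response factor, of 2.07 and 1.23. Mef2c, which drives cardiac muscle genes, went from 149 to 417 and from 103 to 332 CPM. Fbxo32, a muscle ubiquitin ligase, had the largest log2 ratios of those named, 3.63 and 4.09, and Adm had 2.49 and 2.23. Of 13 cardiac transcription factors over the minimums, 2, Isl1 and Mef2c, were higher (3.93% of all genes), none was lower (3.15%) and 11 met neither.

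Of 6 septum transversum genes over the same minimums, 3 were lower in the high band, none was higher and 3 met neither. Over all 4758 genes, 3.15% were lower and 3.93% higher. Lhx2 went from 156 to 19.2 CPM and from 117 to 32.8 CPM across the bands, Alcam from 495 to 249 and from 347 to 236 CPM, and Rspo3, an enhancer of Wnt signalling, from 52.0 to 16.3 and from 33.6 to 19.2 CPM. Aldh1a2, the enzyme that makes retinoic acid, was under the minimums at 26.6 CPM in each library and is not among the 6. It was at 44.0 and 10.4 CPM in the lowest and highest band of the library labelled Ctrl. In the other library it was at 38.7 and 15.8 CPM. Wt1 had no such pattern, at 54.4 and 37.0 CPM and at 28.5 and 23.2 CPM, with intervals that held 0.

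**Figure D2:**
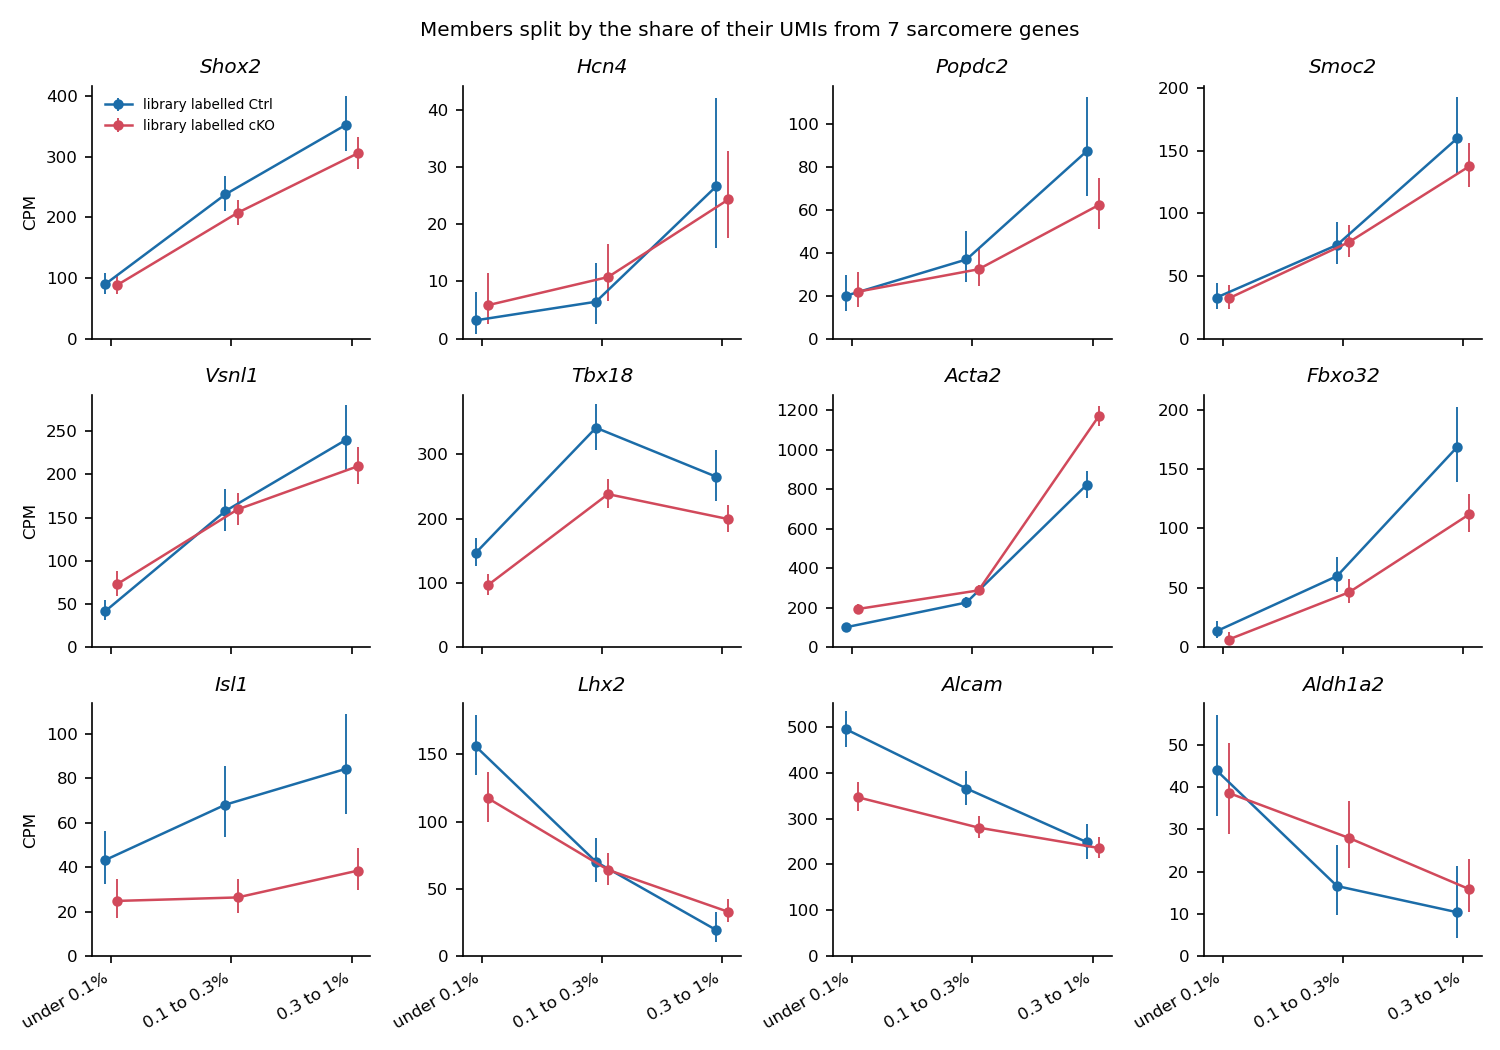
CPM of 12 genes in members with under 0.1%, 0.1 to 0.3% and 0.3 to 1% of UMIs from 7 sarcomere genes, in both libraries, with exact Poisson 95% intervals and a linear axis from 0. Shox2 was at 89.6 and 88.3 CPM in the lowest band and 352 and 305 CPM in the highest, whereas Lhx2 went from 156 and 117 CPM to 19.2 and 32.8 CPM.

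Single-cell detection was uneven for the regulators. After thinning to 5000 UMIs (143 and 262 members), Tbx18 was found in 61.5% and 59.5%, Wt1 in 20.3% and 18.3% and Isl1 in 14.7% and 8.78%. In endothelial cells these shares were 0.760% and 3.16%, 0.380% and 0.791%, and 5.70% and 3.56%. Wt1 was found in 21.6% of Tbx18-positive and 18.2% of Tbx18-negative members in the library labelled Ctrl, and in 19.2% and 17.0% in the other, with overlapping intervals. Isl1 was found in 13.6% and 16.4%, and in 7.05% and 11.3%, also with overlapping intervals. Hcn4 was found in 3 of 21 Isl1-positive members and 3 of 122 others in the library labelled Ctrl, and in 4 of 23 and 19 of 239 in the other, again with overlapping intervals.

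Several genes differed with detection of Wt1 or Isl1. In the 66 and 101 members with a Wt1 UMI, Itga4 was at 124 and 85.1 CPM against 19.7 and 24.7 CPM in the others. In the same split Isl1 was at 35.1 and 25.4 CPM against 87.1 and 33.8 CPM, with intervals that overlap in the library labelled cKO. In the 46 and 52 members with an Isl1 UMI, Tbx18 was at 170 and 86.5 CPM against 284 and 224 CPM. Alcam was at 202 and 152 CPM against 501 and 334 CPM. Sfrp5, which the rule used, was at 107 and 99.98 CPM against 230 and 161 CPM. Members with an Isl1 UMI were deeper (medians of 21794 and 23125 UMIs against 17822 and 14101.5), and the part of depth in these values was not tested. The 24 and 50 members without a Tbx18 UMI had more Nkx2-5 than those with one, 36.2 and 16.0 CPM against 2.01 and 1.23 CPM. These values rest on few counts, as all members gave 24 and 20 Nkx2-5 UMIs, in 7.69% and 4.92% of cells. Shox2, which the rule used, was at 83.9 and 118 CPM without a Tbx18 UMI against 227 and 230 CPM with one.

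The share of kept cells that were members differed by 0.661 points between the libraries (0.191 to 1.12, Newcombe, approximate), higher in the library labelled cKO. Among the bands of sarcomere RNA, the interval of the difference left out 0 in the highest alone. In the 0.3 to 1% band, 32 cells (0.457% of kept cells) and 106 cells (1.08%) were counted, a difference of 0.628 points (0.363 to 0.890). Under 0.1% the shares were 0.813% and 0.614%, and from 0.1 to 0.3% 0.771% and 1.003%, with intervals of the difference that held 0. Below 0.3% in all, the shares were 1.58% and 1.62%, a difference of 0.0326 points (-0.363 to 0.412). Above the limit, 0.628% and 0.788% of kept cells carried both genes, a difference of 0.160 points (-0.105 to 0.413). The pooled share of sarcomere UMIs in endothelial cells, and the shares of endothelial cells with Sfrp5 (1 and 6 cells) and with Shox2 (2 and 8 cells), were also higher in the library labelled cKO, and their part in the result was not tested. No UMI of the erythroid list or of a haemoglobin gene was found in 6709 of 7007 and 1016 of 9773 kept cells, and in those cells members were 1.89% (127 cells) and 3.05% (31 cells).

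**Figure D3:**
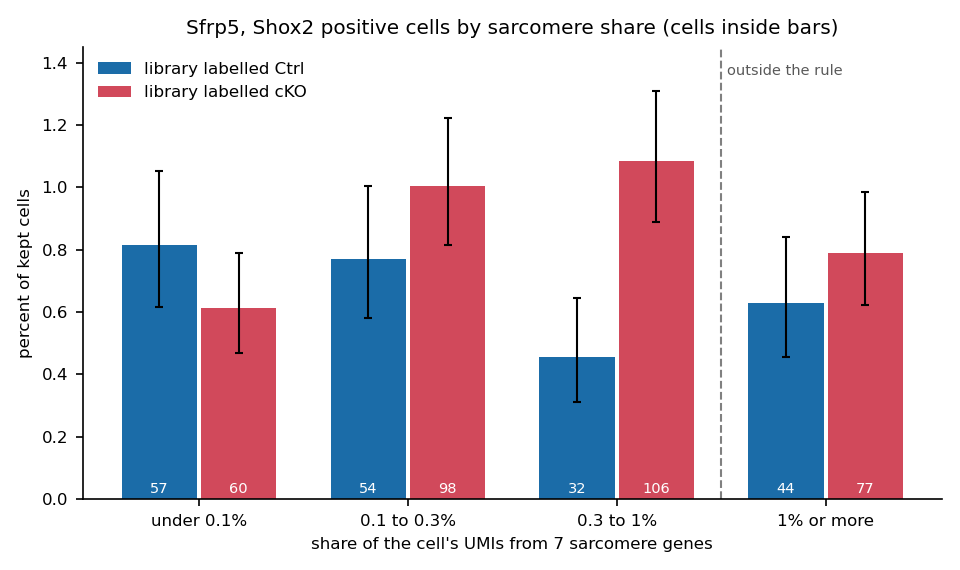
Percent of kept cells that were Sfrp5, Shox2 positive, by the share of their UMIs from 7 sarcomere genes, in both libraries, with Clopper-Pearson 95% intervals and the number of cells inside each bar. The bars stand apart in the 0.3 to 1% band, at 0.457% and 1.08%, and cells right of the dashed line are outside the rule.

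The shares were also taken by sex-linked transcripts. Cells with Xist and no Y-linked UMI, and cells with a Y-linked and no Xist UMI, come from different embryos where the embryos of a library differ in sex. Members were 1.74% (61 of 3506) of the former and 2.42% (66 of 2723) of the latter in the library labelled Ctrl, and 3.01% (162 of 5390) and 2.19% (63 of 2876) in the library labelled cKO. The range of the shares in one library overlapped that in the other, and the difference was 1.27 points (0.619 to 1.89) over cells with Xist and -0.233 points (-1.04 to 0.558) over cells with Y-linked RNA. In the 0.3 to 1% band the shares were 0.542% (19 cells) and 1.28% (69 cells) with Xist. With Y-linked RNA they were 0.404% (11 cells, 0.202 to 0.722) and 0.834% (24 cells, 0.535 to 1.24), with intervals that overlap. With at least 2 UMIs of each defining gene the shares were 1.08% and 1.21%, and after thinning to 5000 UMIs 0.779% and 0.992%, and both intervals of the difference then held 0.

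Few genes of the members were 2-fold apart between the libraries. Of 4765 genes with at least 30 UMIs over both sums and at least 30 CPM in 1 library, 19 were at least 2-fold higher in the library labelled cKO with an interval that left out 1, which is 0.399%, and 24 were at least 2-fold lower, 0.504%. Genes over these minimums are those called compared from here on. Only genes that met this call are said to have risen or fallen. The median log2 ratio of cKO over Ctrl was -0.07, and with it set to 0 the calls were 26 higher and 18 lower. Of the 19 higher genes, 13 were also at least 2-fold higher in all other kept cells, as 8 of the 24 lower genes were at least 2-fold lower there. All 19 and 22 of the 24 had the same direction in those cells. Of all 4765 genes, 15.4% had an interval above 0 and 28.6% an interval below 0, whatever the size of the ratio.

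Isl1 fell in the members. It was at 61.4 CPM (52.9 to 71.0) in the library labelled Ctrl and 30.2 CPM (25.6 to 35.4) in the library labelled cKO. An Isl1 UMI was found in 46 of 143 and 52 of 264 members, and the 5 highest cells held 31.4% and 29.8% of them. After thinning to 5000 UMIs the shares of members with Isl1 were 14.7% (9.33 to 21.6) and 8.78% (5.65 to 12.9), with intervals that overlap. The log2 ratio was -1.02 (-1.34 to -0.71). Over 11 alternatives it ran from -2.42, after thinning to 5000 UMIs, to -0.59, when cells with Colec10 or Upk UMIs were let in, and it kept 2-fold in 7. In the other kept cells the ratio was -0.64, and the difference between the ratios was between -0.70 and -0.07. The ratio was -0.80, -1.37 and -1.13 in the bands from low to high sarcomere RNA. By sex-linked transcripts, Isl1 was at 55.0 and 60.6 CPM in the library labelled Ctrl and at 32.4 and 23.8 CPM in the other, so the libraries did not overlap. Podxl, a sialomucin of the cell surface, was the second of the list to fall, from 41.2 to 18.6 CPM (log2 ratio -1.15, against -0.52 in the other cells). By sex-linked transcripts the libraries overlapped, at 49.7 and 30.7 CPM and at 17.1 and 36.8 CPM.

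None of the other sinus venosus and pacemaker genes was called. Tbx18 had a log2 ratio of -0.39 (-0.53 to -0.25), beside -0.34 in the other kept cells, Tbx5, a T-box factor of the posterior heart, of -0.55 and Tbx20 of -0.49. Smoc2 (0.17), Bmp4 (-0.10), Popdc2 (-0.04) and Slit3 (-0.04) had intervals that held 0, and Vsnl1 was at 0.26 (0.08 to 0.44) and the connexin Gjc1 at -0.26. Hcn4, at 9.63 and 14.2 CPM, was under the floor of 30 CPM for a call and had a ratio of 0.56 (-0.08 to 1.24). Cacna1d, Cacna1g, Cpne5, Ntm and Tbx3 were under it too. Ntm, a neural cell adhesion protein, was at 1.66 and 8.61 CPM, on 5 and 43 UMIs. Over the 12 genes of this list that were compared the median was -0.32, and -0.30 in the other kept cells. In cells with Y-linked RNA alone it was 0.066.

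**Figure D4:**
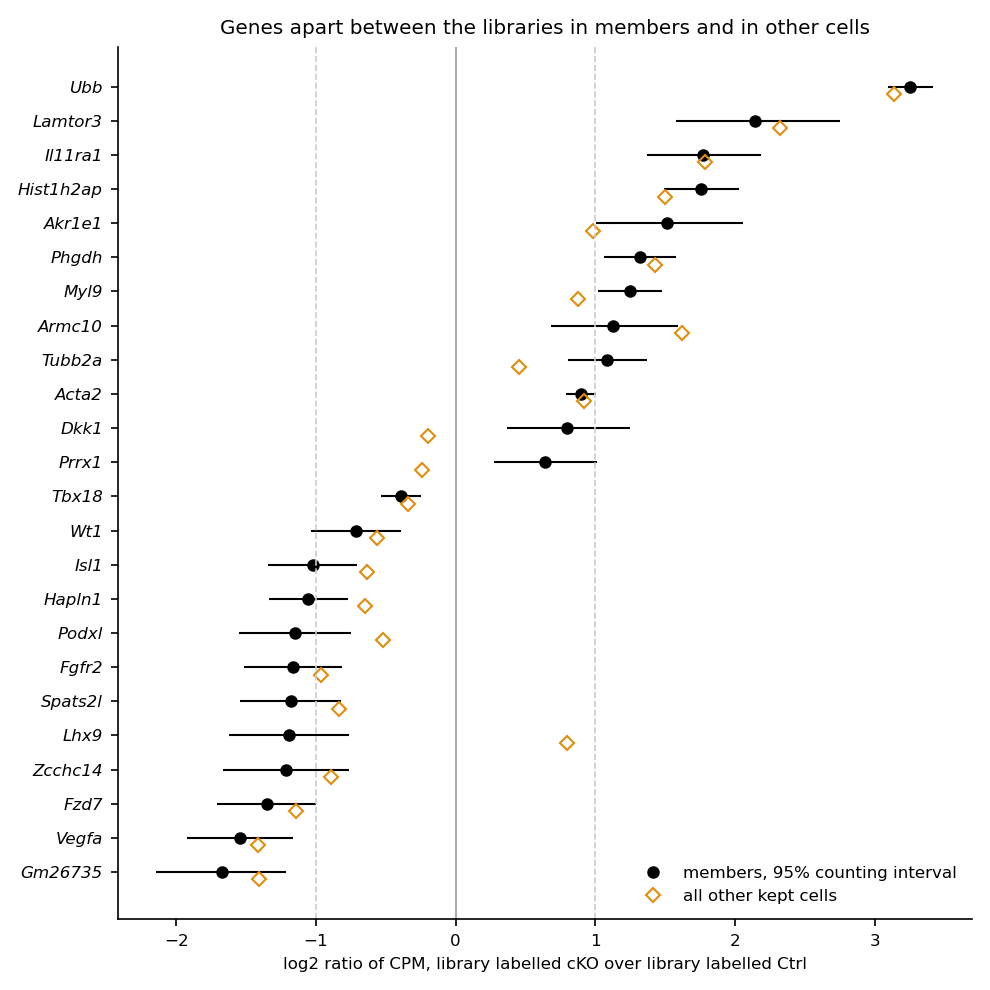
Log2 ratio of CPM, library labelled cKO over library labelled Ctrl, for named genes in the members (filled points, with exact conditional 95% intervals) and in all other kept cells (open diamonds), with dashed lines at 2-fold. Ubb was at 3.25 and 3.14, whereas Lhx9 was at -1.19 in members and 0.80 in the other cells.

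The largest ratios were close to those of the other kept cells. Ubb, a polyubiquitin gene, rose from 111 to 1062 CPM, which on the log2 scale is 3.25 against 3.14 in the other kept cells. By sex-linked transcripts Ubb was at 109 and 102 CPM in the library labelled Ctrl and at 1361 and 372 CPM in the other. Lamtor3, of the Ragulator complex on lysosomes, rose from 9.63 to 42.4 CPM (2.14 against 2.32), and Il11ra1, an interleukin 11 receptor, from 19.9 to 67.8 CPM (1.77 against 1.78). Il11ra1 was at 1.53 CPM in cells with Xist and 38.8 CPM in cells with Y-linked RNA of the library labelled Ctrl, and at 68.4 and 60.6 CPM in the other, so that its ratio was 5.48 with Xist and 0.64, under 2-fold, with Y-linked RNA. Hist1h2ap (1.75), a histone gene, Akr1e1 (1.51), a reductase, Phgdh (1.32), the first enzyme of serine synthesis, and Armc10 (1.13) also rose. Gm10076, Gm10260 and Gm8730 rose as well, and Tpm3-rs7, Gm5900 and Nme2 fell, but these have near-identical copies whose reads the counting could split, so their values are uncertain.

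Tubb2a, a beta tubulin, rose from 43.8 to 92.9 CPM, which on the log2 scale is 1.08 against 0.45 in the other kept cells, a difference of between 0.35 and 0.92. By sex-linked transcripts it was at 46.6 and 45.3 CPM in the library labelled Ctrl and 96.8 and 94.1 CPM in the other. Myl9, the regulatory light chain of smooth muscle myosin, rose from 67.4 to 160 CPM (1.25 against 0.88, a difference of between 0.14 and 0.59). Its ratios in the bands were 2.30, 0.63 and 0.85. Myl9 was not in the smooth muscle list. Of 6 genes of that list compared, 5 had intervals above 0, beside 15.4% of all compared genes, and none was called. Acta2 was at 309 and 574 CPM, a ratio of 0.90 beside 0.92 in the other cells, and Tagln at 161 and 243 CPM. The list's median was 0.45 in members and 0.44 in the others. As more members of the library labelled cKO had high sarcomere RNA, Acta2 was also compared within the bands, where the ratios were 0.93, 0.34 and 0.51.

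Among genes that fell, Vegfa, the endothelial growth factor, went from 54.1 to 18.6 CPM (log2 ratio -1.54, against -1.42 in the other kept cells). Its ratios in the bands were -1.62, -1.50 and -1.13, and by sex-linked transcripts it was at 42.0 and 64.7 CPM and at 19.3 and 21.6 CPM. Fzd7, a Wnt receptor, fell from 57.1 to 22.4 CPM (-1.35 against -1.14) and Fgfr2, an FGF receptor, from 54.1 to 24.2 CPM (-1.16 against -0.96). Zcchc14 (-1.21), Spats2l (-1.18) and the noncoding Gm26735 (-1.67) fell too. One further gene of the 12 lowest has only an accession as its symbol and is not named.

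Lhx9, a LIM-homeodomain factor, fell from 36.5 to 16.0 CPM (log2 ratio -1.19, -1.62 to -0.76), whereas it was higher in the other kept cells (0.80). The value rested on few cells. It came from 110 UMIs in 21 members and 80 UMIs in 31, and the 5 highest cells held 56.4% and 37.5% of them. By sex-linked transcripts it was at 58.8 and 18.6 CPM in the library labelled Ctrl and 11.3 and 45.4 CPM in the other, so the libraries overlapped.

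**Figure D5:**
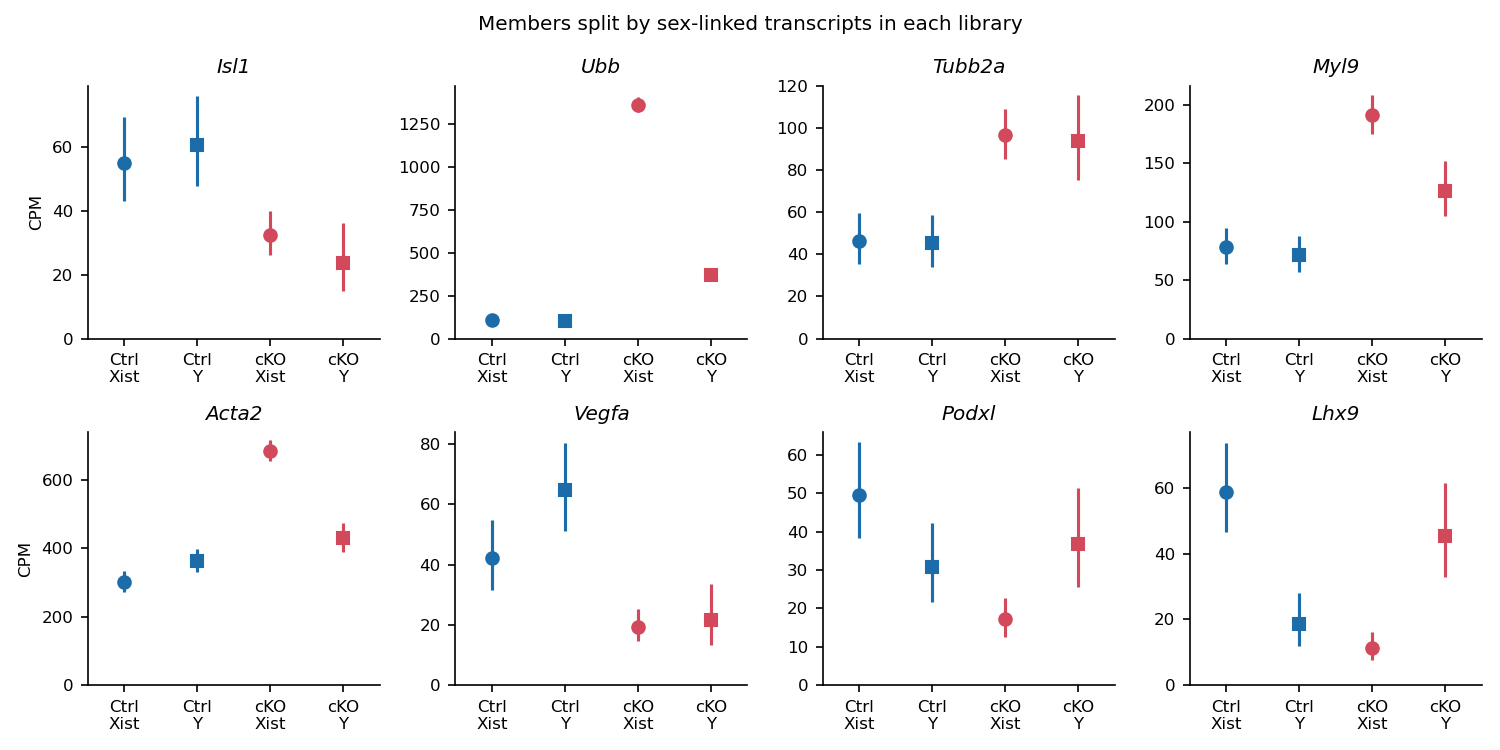
CPM of 8 genes in members with Xist and no Y-linked UMI (circles) and with a Y-linked and no Xist UMI (squares) in each library, with exact Poisson 95% intervals and linear axes from 0. Isl1 was at 55.0 and 60.6 CPM in the library labelled Ctrl and 32.4 and 23.8 CPM in the library labelled cKO, whereas the libraries overlapped for Podxl and Lhx9.

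The transcription factors of the cardiac and inflow lists were mostly below 0 without reaching 2-fold. Of 13 cardiac transcription factors compared, 9 had intervals below 0 and none above, beside 28.6% and 15.4% of all compared genes. Isl1 was the 1 called, and the median was -0.47 beside -0.34 in the other kept cells. Nr2f2, an orphan nuclear receptor of atria and veins, was at 509 and 303 CPM (-0.75), Gata4 at 104 and 80.5 CPM (-0.37), Gata6 at 280 and 240 CPM (-0.22) and Mef2c at 229 and 222 CPM (-0.04). The 4 epicardial genes compared had a median of -0.48 (-0.45 in the others), with Wt1 at -0.71 and Tcf21 at -0.56. Of 6 septum transversum genes, 4 had intervals below 0 (28.6% of all compared genes) and 1 above (15.4%), which was Des, at 47.8 and 67.4 CPM. The 9 genes compared of the posterior second heart field and lung list, with Isl1 again the 1 called, had a median of -0.37 (-0.34 in the others). For the 3 T-box genes compared the median was -0.49 (-0.34 in the others) and for 5 lateral plate genes -0.47 (-0.17), with Lhx9 called and Prrx1, a limb and body wall factor, at 28.6 and 44.4 CPM (0.64, beside -0.24). The ratio of Prrx1 was -0.58 in cells with Y-linked RNA and kept its direction in 10 of 12 alternatives.

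Signalling lists gave few calls. In the Wnt pathway, the canonical list had Wnt2 at -0.12 and Rspo3 at -0.31, both with intervals that held 0. Of the secreted Wnt inhibitors beside Sfrp5, Dkk1 was at 19.9 and 34.6 CPM, a ratio of 0.80 beside -0.20 in the other cells (a difference of between 0.56 and 1.43) that was not called, and Sfrp1 was at 315 and 283 CPM (-0.15). Among 5 non-canonical Wnt genes Fzd7 fell, and the median was -0.28 beside -0.54. Of 10 BMP pathway genes compared, 7 had intervals below 0 (28.6% of all compared genes) and 1 above (15.4%), with a median of -0.43 beside -0.50. Id2, an inhibitor of helix-loop-helix factors that BMP induces, was at 728 and 414 CPM (-0.81), and Bambi, a decoy BMP receptor, at 404 and 394 CPM (-0.04). The hedgehog list had 5 compared, a median of -0.49 (-0.56) and its target Ptch1 at -0.65. The FGF list had 4, a median of -0.46 (-0.71) and Fgfr2 called, and the Notch list 3, a median of -0.64 (-0.35), with Hey1 at 60.5 and 57.6 CPM. Of 3 retinoic acid genes the median was 0.11 beside -0.20, but it ran from -0.83 to 0.27 over 12 alternatives. Of 9 semaphorin, slit and receptor genes, 5 had intervals below 0 (28.6% of all compared genes), with Nrp1 at 357 and 226 CPM (-0.66) and Robo2 at 129 and 90.9 CPM (-0.50), and a median of -0.37 beside -0.56. The 6 Hox genes compared had a median of -0.25 (-0.63) and the 4 channel and connexin genes of -0.36 (-0.23).

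In the matrix, Hapln1, which links hyaluronan to proteoglycans, fell from 79.7 to 38.4 CPM (-1.05, against -0.65 in the other kept cells) and was the 1 called of 21 compared. Fn1 was at 249 and 161 CPM (-0.64, beside -1.25), Sparc at 306 and 428 CPM (0.49) and Col1a1 at 103 and 119 CPM (0.21, beside -0.55), and the median was -0.23 beside -0.33. Of 11 mesenchyme genes none was called, with Vim at 676 and 986 CPM (0.54, beside 0.57) and Twist1 at 295 and 295 CPM. Of 14 glycolysis and hypoxia genes, Vegfa and the glucose transporter Slc2a3 (34.9 to 15.8 CPM, -1.14) fell, 7 had intervals above 0 and 6 below (15.4% and 28.6% of all compared genes), and the median was 0.09 beside 0.12. Of 18 S phase genes, 13 had intervals below 0 (median -0.28 beside -0.16), and of 20 genes of G2 and M phase 9 had intervals above 0 and 2 below (median 0.15 beside -0.01), with none called in either list. The median of the G2 and M phase genes ran from -0.62 to 0.25 over 12 alternatives. Over all compared genes these shares were 15.4% above and 28.6% below 0. The 4 stress genes compared had a median of 0.23 beside 0.15, with Jund at 144 and 210 CPM.

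Markers of other cell types were low or led by genes that mesoderm shares. The 12 endothelial genes summed to 99.0 and 140 CPM against 307 and 236 CPM in the other kept cells, with Cdh5 at 0.996 and 4.20 CPM. At least 5 UMIs of this list were found in 6.29% and 11.4% of members, and the part of this in the results was not tested. The 7 erythroid genes summed to 5.31 and 11.2 CPM (2.21 and 59.8 CPM in the other cells), the 9 neural crest genes to 46.2 and 34.0 CPM, mostly Ets1, and the 10 foregut genes to 172 and 169 CPM, mostly Krt8 and Krt18, with Epcam at 2.66 and 1.201 CPM. The 8 hepatoblast genes summed to 441 and 474 CPM, of which Dlk1 was 440 and 471 CPM, and Alb, Afp and Apoa2 were at 0 in both libraries. Of 14 branchiomeric muscle and somite genes, Tcf21 and Lhx2 led, and Msc was at 3.99 and 5.20 CPM. Cardiomyocyte genes outside the rule had a median log2 ratio of 0.11 over 5 compared, beside 0.48 in the other kept cells, and from -0.37 to 0.33 over 12 alternatives, with Tnni1 at 378 and 431 CPM.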

How the data were processed

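The counts were deposited by the authors as whole UMIs per gene and barcode for 27998 genes, from Cell Ranger 3.1.0 on mm10 per the submitters' notes, without normalization. Members and gene lists were chosen with earlier results of these data known. UMIs of members were summed per library and divided by the library's member total (CPM). Sums carry exact Poisson, ratios exact conditional and shares Clopper-Pearson intervals (scipy 1.17.1, numpy 2.4.6, pandas 2.3.3, python 3.11.15). These cover counting error only. Figures used matplotlib 3.10.9. A call needed 2-fold and an interval without 1, and the call rule was tested on simulated data. The simulated sums were Poisson draws, the model of the intervals. They held no variation between cells, embryos or libraries, so the rule was not checked against it. Presumed doublets were the highest Scrublet scores (scanpy 1.11.5), at 0.8% per 1000 kept cells, and were kept in the main results. Called genes were not named where they belonged to the rule or were mitochondrial, sex-linked, haemoglobin or ribosomal protein genes. Each of 33 lists was described by count, with up to 4 genes named for size of change or level, the genes of the sinus venosus list, up to 12 called genes each way, the 20 genes highest over other kept cells among those of at least 50 CPM in both libraries, Tbx1, and further genes chosen after their values were seen. A total of 8 alternatives to the member rule were planned for the shares and 2 added after the data were seen. Some genes of the lists are not reported here.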

Additional observations from a re-analysis of the deposited data

How the results depend on the processing

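No paired analysis was possible because each genotype is 1 library. The share of members in the library labelled Ctrl, 2.04%, was 1.08% with at least 2 UMIs of each defining gene, 0.779% after thinning, 1.58% with a sarcomere limit of 0.3% 2.42% in cells with Y-linked RNA and 1.89% in cells with no UMI of the erythroid list or a haemoglobin gene (127 of 6709 cells). In the library labelled cKO, 2.70%, it was 1.21%, 0.992%, 1.62% and 2.19% in the same order, 2.38% without presumed doublets, 3.1004% without the exclusion by Colec10 and Upk genes, and 3.05% without erythroid or haemoglobin UMIs (31 of 1016 cells). The difference of 0.661 points was 0.123 with 2 UMIs, 0.0326 with the 0.3% limit, 1.27 with Xist, reversed to -0.233 with Y-linked RNA, and was 1.16 without haemoglobin. The 19 genes called higher became 33 with 2 UMIs (19 shared), 55 after thinning (7 shared), 41 with Xist, 52 with Y-linked RNA, 97 without haemoglobin and 186 without a filter on low counts. The 24 called lower became 46 (23 shared), 70 (5 shared), 50, 108, 235 and 292 in the same order, and 40 with the 0.3% limit. These settings hold fewer cells or, without the filter, genes of fewer counts. Lhx9 reversed to 1.29 with Y-linked RNA and 0.036 without haemoglobin, and Podxl to 0.26 with Y-linked RNA. The cause was not tested. Over 12 alternatives, Fzd7, Vegfa, Lamtor3 and Ubb kept at least a 2-fold ratio in the same direction in 12, Tubb2a in 9 and Isl1 in 7 of 11. Medians of the cardiomyocyte and retinoic acid lists kept their direction in 8, of the mesenchyme list in 7, of the septum transversum list in 9 and of the G2 and M phase list in 10 of 12.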
